A study of Mus musculus with 6 samples.

Results

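The 10 genes described here encode transcription factors that establish or maintain the identity of B cells: Pax5, Ebf1, Tcf3, Tcf4, Ikzf1, Ikzf3, Bach2, Bcl6, Spib and Bcl11a. They were chosen by name, and all 10 were found among the 20458 gene names of the table, where they hold 22 of 25017 entries. The RNA came from follicular B cells of C57BL/6 mice, sorted as B220+, AA4.1-, CD23+ and CD21lo, in 3 samples of CD23Cre+Myh9wt/fl and 3 samples of CD23Cre+Myh9fl/fl mice. Every mouse carried a Cre transgene driven by the CD23 (Fcer2a) promoter, which becomes active as B cells mature, and Myh9, the gene of the myosin IIa heavy chain, with loxP sites around exon 3. Both groups therefore carried Cre and at least 1 floxed allele, and the reference group was haploinsufficient rather than wild-type. The labels do not give the age of the sequenced mice.

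The values are FPKM, a fragment count adjusted for the length of the transcript and the depth of the library, so levels can be compared between genes as well as between genotypes. The authors pooled the 3 samples of a genotype into 1 value per entry, and an entry collects the transcripts of a gene that share a coding sequence. No value below therefore has a spread between mice, an SD or a p-value, and each difference is a description of the pooled samples. A log2 ratio is fl/fl over wt/fl after summing the entries of a gene and adding 1 FPKM to each value. A gene was called when this ratio was past 1.5-fold in either direction, and 9866 genes whose mean was 1 FPKM or more were compared. In a bulk sample, fewer cells of a type and less RNA per cell cannot be told apart.

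These factors act at successive steps. The E proteins encoded by Tcf3 (E2A) and Tcf4 (E2-2) bind E-box DNA as dimers and start the program in lymphoid progenitors together with Ebf1, and Pax5 then commits the cells by activating B cell genes and repressing those of other lineages. Ikaros (Ikzf1) and Aiolos (Ikzf3) are zinc finger proteins that recruit the NuRD chromatin remodeling complex, Spi-B (Spib) is an ETS factor related to PU.1, and Bcl11a is a zinc finger factor needed for early B cell development. In mature B cells, Bach2 and Bcl6 repress Prdm1 and so hold back plasma cell differentiation, and Bcl6 is the central factor of the germinal center.

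The deleted gene followed the labels. Myh9 was at 50.6 FPKM in wt/fl versus 21.1 FPKM in fl/fl, or 41.7% of the haploinsufficient level, a log2 ratio of −1.22. The FPKM covers the whole transcript and not exon 3 alone, so RNA without this exon is counted too. The sorted cells also carried B cell markers at high levels: the 7 listed, among them Cd79a, Cd79b, Ms4a1, Cd22, Fcer2a and Blnk, ranged from 176 to 1638 FPKM in wt/fl and from 170 to 1739 FPKM in fl/fl. Fcer2a encodes CD23, which was used for the sort. The FPKM of all entries summed to 595296 in wt/fl versus 596105 in fl/fl, and the median log2 ratio of all compared genes was 0.0026.

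Of the 10 genes, 6 had a single entry, whereas Tcf3 had 8, Bcl11a had 4, and Ikzf1 and Tcf4 had 2 each. Some entries of Tcf3 and Bcl11a differed between the genotypes by more than the gene sums did. Sequences that differ among the coding sequences of these genes are therefore shown first. These divide the coding sequences into groups and do not single out each one. In GENCODE M21 (GRCm38), Tcf3 has 10 complete coding sequences of 1935 to 1959 bases with 18 coding exons. They use 1 of 2 mutually exclusive exons on the minus strand that encode the basic helix-loop-helix region by which E2A binds DNA and dimerizes, the alternatives known as E12 and E47. The downstream exon (chr10:80410398-80410624) occurs in 6 of the 10 coding sequences and the upstream exon (chr10:80412827-80413062) in 4. Aligned end to end, they are identical in 175 of 236 columns, or 74.2%, and the capitals mark the 8 runs of at least 8 bases that both share.
Tcf3 upstream alternative exon: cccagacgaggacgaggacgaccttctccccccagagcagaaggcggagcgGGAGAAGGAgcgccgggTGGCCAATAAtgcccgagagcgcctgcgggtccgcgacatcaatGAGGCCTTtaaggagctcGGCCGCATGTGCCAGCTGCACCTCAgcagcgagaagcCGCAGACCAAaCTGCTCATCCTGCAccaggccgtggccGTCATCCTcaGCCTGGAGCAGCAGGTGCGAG
Tcf3 downstream alternative exon: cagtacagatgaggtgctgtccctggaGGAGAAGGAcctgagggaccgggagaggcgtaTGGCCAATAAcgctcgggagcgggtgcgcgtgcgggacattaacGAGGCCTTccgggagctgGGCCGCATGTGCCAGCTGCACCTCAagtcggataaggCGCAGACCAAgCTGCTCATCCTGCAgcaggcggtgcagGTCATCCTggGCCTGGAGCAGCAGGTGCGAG

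Bcl11a has 4 complete coding sequences in GENCODE M21, of 2505, 2319, 729 and 573 bases. The longest ends within its large zinc finger exon, and the other 3 splice out of that exon into a last coding exon on the plus strand (chr11:24172699-24172797), which they read to different ends. The coding sequence of 2319 bases stops after the first 89 bases of this exon, and the shorter pair reads all 99. The last 10 bases, coding in the shorter pair alone, are in capitals.
Bcl11a last coding exon: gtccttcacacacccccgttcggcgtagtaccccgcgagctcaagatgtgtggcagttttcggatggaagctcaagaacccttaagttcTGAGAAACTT

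The table names its entries by identifiers only and does not say which coding sequence an entry stands for. An entry is therefore given by its identifier, and none was assigned to an exon above.

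The B lineage factors were abundant in both genotypes, and none differed by 1.5-fold. The gene count called was 0 of 10, where 2.32% of all compared genes were called (0.791% higher and 1.53% lower in fl/fl). At a lower limit of 0.32 on the log2 scale the count was again 0 of 10, where 10.1% of all compared genes were past it. This count depends on scaling, since the upper quartile scaling described below put Bcl6 (0.41) and Bcl11a (0.33) past the lower limit. The log2 ratio was above 0 for 5 of the 10 and below 0 for 5, with a median of 0.0098 and a range from −0.14 (Tcf4) to 0.30 (Bcl6). Their median absolute log2 ratio was 0.12, beside 0.11 for all compared genes. Genes with a mean level within 2-fold of that of a factor had lower medians, from 0.088 (for Tcf3) to 0.099 (for Ebf1). Summed over the 10, the FPKM was 1416 in wt/fl versus 1470 in fl/fl, or 0.238% and 0.247% of the total of the table.

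**Figure D1:**
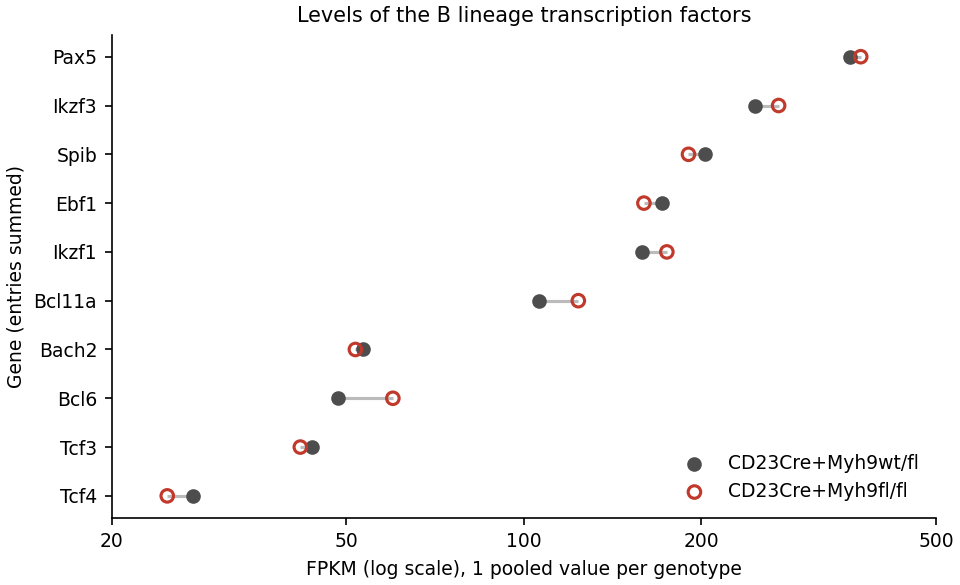
FPKM of the 10 B lineage transcription factors on a logarithmic axis, 1 pooled value per genotype, with filled circles for CD23Cre+Myh9wt/fl and open circles for CD23Cre+Myh9fl/fl. Levels ran from 24.8 FPKM (Tcf4) to 373 FPKM (Pax5), and the circles of a gene lie close together beside this range, with the widest gap in Bcl6.

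Pax5 (chr4:44544377-44723312, mm9), the commitment factor, had the highest level of the 10, with 357 FPKM in wt/fl versus 373 FPKM in fl/fl, a log2 ratio of 0.06. It ranked 166th of the 9866 compared genes by mean FPKM. Ebf1 (chr11:44431635-44818674), which acts upstream of Pax5 and with it, was at 171 and 160 FPKM, a log2 ratio of −0.10. The level of Pax5 was 2.08 times that of Ebf1 in wt/fl and 2.33 times in fl/fl. Both genes stood among the top 3.52% of compared genes, and larger absolute log2 ratios were held by 70.4% of compared genes for Pax5 and by 53.1% for Ebf1.

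Among relatives of these factors, Pax2, Pax6, Pax8 and Pax9 together had 0.103 FPKM in either genotype, with Pax2 at 0 in both. Ebf2, Ebf3 and Ebf4 together had 0.0487 FPKM in wt/fl versus 0.143 FPKM in fl/fl. Each of these relatives was under 1 FPKM, so Pax5 and Ebf1 were the only measured members of the listed Pax and Ebf genes above that level.

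The E protein genes had the lowest levels of the 10. Tcf3 (chr10:79871909-79896398, mm9) summed to 43.7 FPKM in wt/fl versus 41.8 FPKM in fl/fl, a log2 ratio of −0.06, and Tcf4 (chr18:69504145-69847621) to 27.4 and 24.8 FPKM, a log2 ratio of −0.14. An older usage gives the symbol Tcf3 to the Wnt pathway factor Tcf7l1, but the entries lie on chromosome 10, where RefSeq places E2A. The third E protein gene, Tcf12 (HEB), was at 33.3 and 34.7 FPKM. The 3 genes together had 104 FPKM in wt/fl versus 101 FPKM in fl/fl.

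E proteins are held inactive by the Id proteins, which dimerize with them but cannot bind DNA. Of the 4 Id genes, Id3 was the most abundant, at 66.9 FPKM in wt/fl versus 89.1 FPKM in fl/fl, a log2 ratio of 0.41, which is short of the limit. Id2 was at 5.12 and 2.83 FPKM, a log2 ratio of −0.68, and was called lower. Id1 (0.427 and 0.116 FPKM) and Id4 (0 and 0.0425 FPKM) were under 1 FPKM. The summed level of Id1 to Id4 was 72.5 FPKM in wt/fl versus 92.1 FPKM in fl/fl, so the ratio of E protein to Id transcripts was 1.44 in wt/fl versus 1.10 in fl/fl. Whether this pair of ratios exceeds the spread between mice was not tested, since the samples are pooled.

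Of the Ikaros genes, Ikzf3 was the most abundant of the 10 factors after Pax5. Ikzf3 (chr11:98326006-98407345, mm9) had 247 FPKM in wt/fl versus 270 FPKM in fl/fl, a log2 ratio of 0.13. Ikzf1 (chr11:11586215-11672929) had 159 and 175 FPKM, a log2 ratio of 0.14. Their level ratio stayed close, with 1.56 times as much Ikzf3 as Ikzf1 in wt/fl and 1.55 times in fl/fl. Within the family, Ikzf5 (Pegasus) was at 12.9 and 10.5 FPKM, whereas Ikzf2 (Helios, 0.127 and 0.128 FPKM) and Ikzf4 (Eos, 0.0182 and 0.143 FPKM) were under 1 FPKM.

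Spib (chr7:51781364-51787441, mm9) was at 203 FPKM in wt/fl versus 190 FPKM in fl/fl, a log2 ratio of −0.09. Its relative Spi1, which encodes PU.1 and stands in the table under the older name Sfpi1, was at 52.8 and 58.3 FPKM, so Spib exceeded it 3.84 times in wt/fl and 3.26 times in fl/fl. Spic, the third gene of this ETS branch and best known in red pulp macrophages, was at 2.89 and 4.89 FPKM, a log2 ratio of 0.60, and was the 1 relative of the 10 factors that was called. Irf4 (60.8 and 58.9 FPKM) and Irf8 (106 and 109 FPKM), which bind composite DNA elements together with PU.1 or Spi-B, had log2 ratios of −0.04 and 0.04.

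Bcl11a (chr11:23978055-24073558, mm9) summed to 106 FPKM in wt/fl versus 124 FPKM in fl/fl, a log2 ratio of 0.22, exceeded in size by 21.7% of compared genes. Among the 992 others with a mean level within 2-fold of that of Bcl11a, the share was 14.9%. Its paralog Bcl11b, a T lineage factor, was at 0.166 and 0.217 FPKM.

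Bcl6 (chr16:23965137-23988698, mm9) had the largest difference of the 10, with 48.4 FPKM in wt/fl versus 60.0 FPKM in fl/fl, 23.8% more and a log2 ratio of 0.30. Among all compared genes, 11.7% had a larger absolute log2 ratio, and among the 2293 others with a mean level within 2-fold of that of Bcl6 the share was 5.36%. Bach2 (chr4:32504409-32673083) was at 53.3 and 51.8 FPKM, a log2 ratio of −0.04, the smallest difference of the 10. Their paralogs were low, with Bcl6b at 0.496 and 0.330 FPKM and Bach1 at 3.00 and 2.42 FPKM. The small Maf genes Mafk, Mafg and Maff, whose products are the DNA-binding partners of Bach2, summed to 19.3 and 20.6 FPKM, but did not go the same way. Mafg was at 5.06 and 3.53 FPKM, a log2 ratio of −0.42 and the largest in size of the 23 partner subunits listed, and Mafk was at 13.0 and 15.5 FPKM, a log2 ratio of 0.24.

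In order of level, the wt/fl samples had Pax5, Ikzf3, Spib, Ebf1, Ikzf1, Bcl11a, Bach2, Bcl6, Tcf3 and Tcf4. The fl/fl samples had the same order for 6 of the 10 genes, with Ikzf1 (175 FPKM) above Ebf1 (160 FPKM) and Bcl6 (60.0 FPKM) above Bach2 (51.8 FPKM). In wt/fl these neighbours stood 1.08 times apart for Ebf1 over Ikzf1 and at 0.909 for Bcl6 over Bach2. With pooled samples, no neighbouring pair in either order can be said to differ beyond a spread between mice. Exons of Pax5, Bach2, Bcl11a and Bcl6 overlap annotated genes on the opposite strand, and the sources used here do not say whether strand was used in counting. The highest level was 13.0 times the lowest in wt/fl and 15.0 times in fl/fl.

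**Figure D2:**
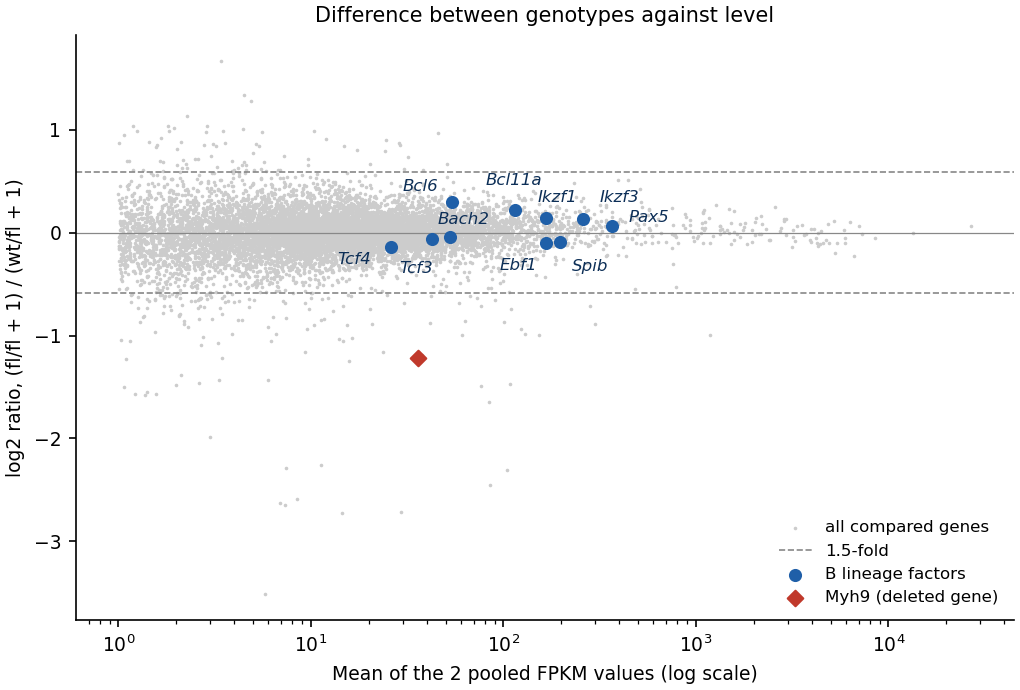
Log2 ratio of fl/fl over wt/fl FPKM (1 added to each) against mean FPKM on a logarithmic axis for the 9866 compared genes (grey), the 10 B lineage factors (blue) and Myh9 (red), with dashed lines at 1.5-fold. The 10 factors lie between −0.14 and 0.30, inside the dashed lines, and Myh9 at −1.22; under upper quartile scaling Ebf1, Tcf3, Bach2 and Spib lie just above 0.

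The sign of the smaller differences depends on how the genotypes are scaled. Upper quartile scaling over the genes above 0 in each genotype moved the median log2 ratio of all compared genes to 0.107 and turned Ebf1 (0.01), Spib (0.02), Tcf3 (0.05) and Bach2 (0.07) above 0. Against that shifted median these 4 genes remained lower. It also changed the split of called genes, 56.5% of which were then higher in fl/fl, against 34.1% without it. None of the 10 factors was called at 1.5-fold under any scaling tried.

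The entries of Tcf3 diverged more than their sum. The most abundant, P3956, was at 16.6 FPKM in wt/fl versus 13.3 FPKM in fl/fl, or 37.9% and 31.9% of the Tcf3 total. The next, P5757, was at 8.32 and 11.6 FPKM, from 19.0% to 27.7% of the total, and P11319 was at 7.55 and 4.99 FPKM. These 3 entries thus went in both directions.

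The other 5 entries of Tcf3 lay between 1.11 and 3.95 FPKM in wt/fl and between 1.29 and 3.84 FPKM in fl/fl. P21594 was at 1.11 and 2.22 FPKM, a log2 ratio of 0.61, and was the only entry of Tcf3 past 1.5-fold after 1 FPKM was added to each value. This addition is large beside entries so low, and without it 4 entries of Tcf3 were past 1.5-fold: P21594 and P23323 (1.56 and 2.74 FPKM) higher, and P11319 and P21404 (2.11 and 1.29 FPKM) lower in fl/fl. In all, 3 entries of Tcf3 had higher and 5 had lower values in fl/fl. Put as a share, 14.6% of the Tcf3 FPKM sat in other entries in fl/fl than in wt/fl. The median of this share was 5.92% over the 1767 compared genes with at least 2 entries and 8.68% over the 35 other genes with at least 6, of which 15 had a larger share than Tcf3.

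**Figure D3:**
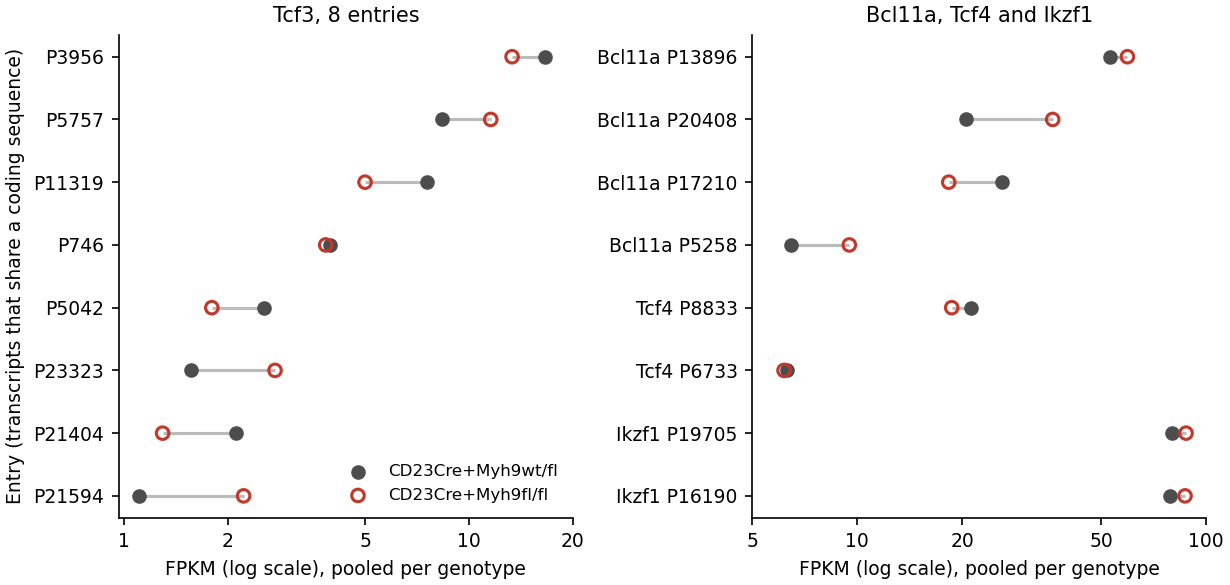
FPKM of each entry of Tcf3 (left) and of Bcl11a, Tcf4 and Ikzf1 (right) on logarithmic axes, 1 pooled value per genotype, with filled circles for wt/fl and open circles for fl/fl. The circles of Tcf3 and Bcl11a entries cross over, with open circles right of filled ones in 3 of 8 and in 3 of 4 entries, while both Ikzf1 entries shift right by about the same distance.

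In Bcl11a, entry P20408 was at 20.5 FPKM in wt/fl versus 36.4 FPKM in fl/fl, 1.78 times as much and a log2 ratio of 0.80, while P17210 was at 26.1 and 18.3 FPKM, a log2 ratio of −0.49. P20408 went from 19.3% to 29.4% of the Bcl11a total and P17210 from 24.6% to 14.8%, that is, 10.1 percentage points more and a change of −9.81. The most abundant entry, P13896, was at 53.0 and 59.5 FPKM, and P5258 was at 6.46 and 9.49 FPKM. The share of FPKM that sat in other entries was 11.7%, and 51 of the 127 other genes with 4 entries had a larger one.

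Ikzf1 showed no such exchange. Its 2 entries were at 79.7 and 78.9 FPKM in wt/fl and at 87.7 and 87.1 FPKM in fl/fl, each close to an even share of the gene in both genotypes, and 0.104% of the FPKM sat in another entry. In Tcf4, P8833 was at 21.2 and 18.7 FPKM and P6733 at 6.28 and 6.17 FPKM, with 1.96% of the FPKM in another entry.

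Of the 22 entries of the 10 genes, 2 were past 1.5-fold with 1 FPKM added (P21594 of Tcf3 and P20408 of Bcl11a), where 6.22% of the 11411 entries whose mean was 1 FPKM or more were. Without the addition 5 of the 22 were, where 9.88% of the 11408 such entries above 0 in both genotypes were. Both percentages include genes with a single entry, whose FPKM is not split. A percentage over genes with several entries alone was not computed. Since 4 of the 5 entries belong to Tcf3 and share its fragments, they are not independent. How fragments were divided among coding sequences that overlap for most of their length is an estimate of the authors' software, and its error is unknown here.

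Subunits that these factors recruit or pair with were compared as a list of 23 genes, all above 1 FPKM. For the NuRD complex used by Ikaros, Chd4 was at 58.1 FPKM in wt/fl versus 62.6 FPKM in fl/fl, Hdac1 at 102 and 115 FPKM, and Gatad2b at 72.9 and 78.8 FPKM. The Bcl6 corepressor genes Bcor (24.1 and 27.4 FPKM) and Ncor1 (64.8 and 66.2 FPKM) had log2 ratios of 0.18 and 0.03. Of the 23 genes, 0 were called, 16 had a log2 ratio above 0 and 7 below, and the median was 0.10, beside 0.0026 for all compared genes. Of all compared genes, 50.5% had a log2 ratio above 0. This background was not matched for level.

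A further 16 transcription factors of B cells were compared. Pou2af1, the B cell coactivator OBF-1, was at 604 FPKM in wt/fl versus 633 FPKM in fl/fl, Ets1 at 226 and 237 FPKM, and Mef2c at 157 and 165 FPKM. Of the 16 listed genes, 8 were higher and 8 lower in value, with a median log2 ratio of 0.02. Lef1, a Wnt pathway factor of early B cells, was the only 1 called, at 3.44 FPKM in wt/fl versus 7.75 FPKM in fl/fl, a log2 ratio of 0.98. Of its 3 entries, P16745 held most of the difference, at 1.81 and 5.28 FPKM.

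Genes that Pax5 or Ebf1 activate had a median log2 ratio of 0.08 over the 14 of 16 above 1 FPKM. Cd79b (1638 and 1739 FPKM) and Cd79a (1098 and 1115 FPKM), which encode the signaling chains of the B cell receptor, had the highest levels. Blnk, an adaptor gene, was at 176 and 170 FPKM. None of the 14 was called, and 11 had a log2 ratio above 0, where 50.5% of all compared genes had one. This background was not matched for level. The 196 genes with a mean level within 2-fold of that of Pax5 had a median log2 ratio of 0.041. The largest of the 14 log2 ratios was that of Fcer2a, at 439 FPKM in wt/fl versus 588 FPKM in fl/fl, or 0.42. Fcer2a was also the gate and the source of the Cre promoter, so its level is not independent of the sort. For the protein, the paper reported higher surface CD23 on fl/fl follicular B cells by flow cytometry. It described a similar surface phenotype after induced deletion in bone marrow chimeras.

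The listed early B cell genes were low, and most were near or at 0. Igll1 and Mme were at 0 in both genotypes, and Vpreb1, Vpreb2, Rag1, Rag2, Dntt and Erg were under 1 FPKM. The 2 genes with a mean above that level were Il7r (1.23 and 0.896 FPKM) and Cd93 (3.28 and 4.23 FPKM), the latter encoding AA4.1, for which the sort was negative.

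Genes that Pax5 represses were low as well, apart from Xbp1 (48.8 and 45.9 FPKM) and Grap2 (15.5 and 19.3 FPKM). Flt3 (0.596 and 0.384 FPKM), Cd28 (0.275 and 0.355 FPKM) and Ccr2 (0.805 and 0.892 FPKM) were under 1 FPKM, and Notch1 was at 3.57 and 3.19 FPKM. Of the 7 compared, Igj (now Jchain), the J chain of secreted antibody, was called lower, at 5.40 FPKM in wt/fl versus 0.617 FPKM in fl/fl. The other 6 were not called, and the median log2 ratio was −0.12, but 0.10 when genes under a mean of 5 FPKM were left out. Only Xbp1 and Grap2 then remained.

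Genes that Bcl6 or Bach2 represses had a median log2 ratio of −0.11 over the 12 of 16 above 1 FPKM, with 4 above 0 and 8 below (0.0029 under the upper quartile scaling described above). Prdm1, the plasma cell factor gene that both restrain, was at 1.07 FPKM in wt/fl versus 0.899 FPKM in fl/fl, under 1 FPKM on average. The level of Bcl6 was 45.2 times that of Prdm1 in wt/fl and 66.7 times in fl/fl, and that of Bach2 49.7 and 57.6 times. Id2 (given above) was called lower, and Hmox1, the heme oxygenase gene on which Bach factors act, was called higher, at 1.51 and 2.98 FPKM, a log2 ratio of 0.66. Among the most abundant of the list, Trp53 (102 and 110 FPKM) and S1pr1 (98.0 and 75.2 FPKM), were not called, and Ccnd2 was at 15.3 and 10.4 FPKM, a log2 ratio of −0.51.

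**Figure D4:**
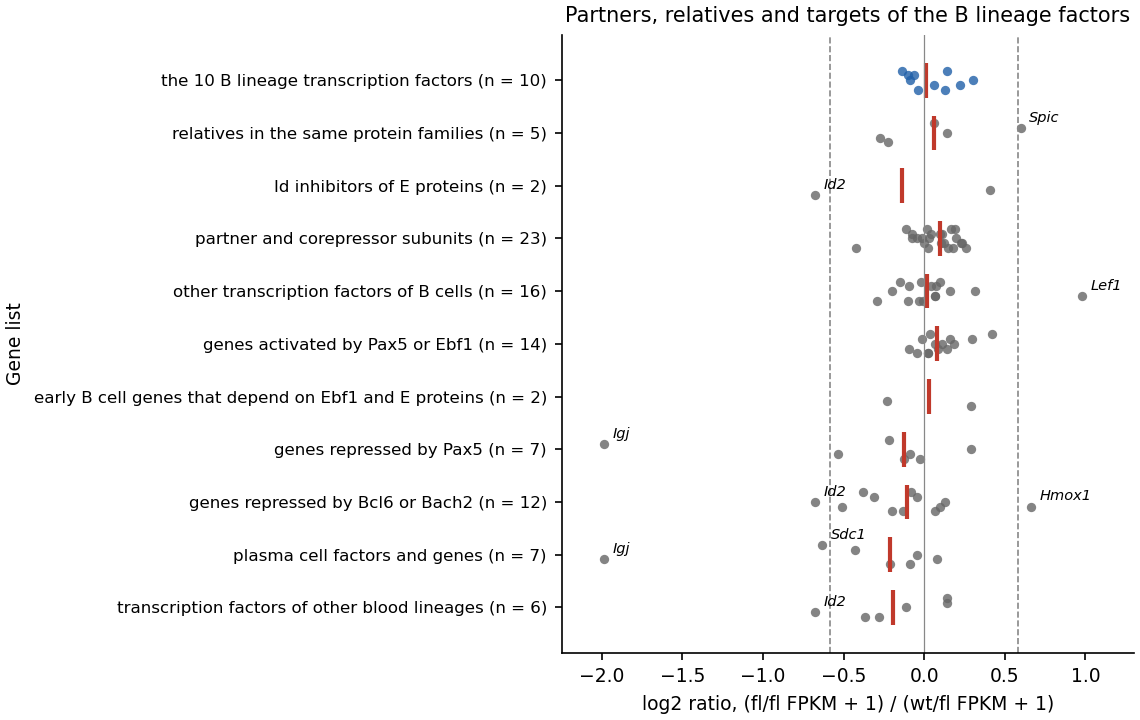
Log2 ratio of fl/fl over wt/fl FPKM (1 added to each) for the genes of each list whose mean was 1 FPKM or more, 1 dot per gene, with a red bar at the median and dashed lines at 1.5-fold; genes past the lines are named. The 10 factors and the 23 partner subunits lie within the lines, and the list medians run from −0.21 to 0.10.

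The plasma cell genes included 2 called lower of 7 compared, Igj and Sdc1 (2.30 FPKM in wt/fl versus 1.13 FPKM in fl/fl, a log2 ratio of −0.63). Mzb1 was at 189 and 140 FPKM and Zbtb20 at 19.3 and 20.5 FPKM, and Tnfrsf17 was listed at 0 in both genotypes. Igj stands on this list and on that of genes repressed by Pax5, and Xbp1 likewise. Factors of other lineages were low, with 11 of 17 under 1 FPKM, among them Gata1 at 0 in both genotypes and Cebpa at 0.0993 and 0.0245 FPKM. Besides Spi1, those with a mean above 1 FPKM were Runx3 (22.6 and 25.1 FPKM), Id2, Klf4, Tcf7 and Cebpb, and Id2 was the 1 called. The median log2 ratio of −0.19 over these 6 became 0.14 without genes under a mean of 5 FPKM, which leaves Spi1 and Runx3 alone.

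Markers of other cells differed between the pooled samples beside these results. The 10 neutrophil markers summed to 383 FPKM in wt/fl versus 71.5 FPKM in fl/fl, led by S100a9 (175 and 34.5 FPKM) and S100a8 (145 and 25.8 FPKM), with 7 of 8 compared called lower (range −2.65 to −0.23). Globin genes led the erythroid markers, whose 6 names in the table summed to 47.5 and 6.99 FPKM (2 of 2 compared called lower). The 10 macrophage markers summed to 87.6 and 58.9 FPKM, most of it Lyz2 (72.6 and 44.9 FPKM), the 1 of 5 compared that was called lower. Of these 5, 2 were higher and 3 lower in fl/fl, with a median log2 ratio of −0.02. The 9 T cell markers summed to 24.9 and 23.3 FPKM (0 of 4 called) and the 5 NK cell markers to 29.1 and 19.6 FPKM (1 of 3, Nkg7, called lower). The 6 plasma cell markers summed to 247 and 189 FPKM (2 of 4, Igj and Sdc1, called lower). Most of that sum was Mzb1 (189 and 140 FPKM), which was not called. Plasmacytoid dendritic cells also express Tcf4, Spib and Bcl11a. Their 8 markers summed to 20.4 and 19.3 FPKM, of which Pacsin1 and Irf7 gave most, and the defining genes Siglech (0.340 and 0.378 FPKM) and Cd300c (0 in both) were at or near 0. All 6 markers of conventional dendritic cells were under 1 FPKM. Germinal center cells express Bcl6, and of their 7 markers Fas was called higher (4.43 and 7.19 FPKM), while S1pr2 (0.662 and 0.214 FPKM) was under 1 FPKM. The part of other cells in the levels of the 10 factors was not tested.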

How the data were processed

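RNA of sorted follicular B cells (3 samples of each genotype) was amplified with a kit for small amounts of RNA before sequencing. The submitters' processing notes name Bowtie, TopHat and Cufflinks, with builds mm10 and GRCm38, but 118 entries lie on sequences ending in _random and the position of Myh9 differs from GRCm38, so table positions are given as mm9 and were not converted. The authors deposited 1 comparison table with FPKM pooled per genotype. Its fold changes, test statistics, p-values and q-values are the authors' own comparison and were not used. Depth per sample is unknown: at the best common step, 29.2% (wt/fl) and 36.8% (fl/fl) of low FPKM times transcript length lay within 0.1 of a whole multiple, so whole reads could not be recovered.

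FPKM was summed per gene name after leaving out 44 entries whose symbol reads as a date. Log2 ratios used a pseudocount of 1 FPKM, genes whose mean was 1 FPKM or more were compared, and a gene was called past 1.5-fold. The ratio was tested on simulated data. Sequences were read from GENCODE M21 transcripts (GRCm38). Of 223 listed names, 216 matched by name, 4 by a name shared with a copy, 2 by a RefSeq synonym and 1 by an older symbol. The 10 genes and all lists were chosen with earlier results of these data known. Genes named are the 10 factors, Myh9, and in each list the 3 most abundant (for marker lists, only those that lead the sum), the called and, in marker and family lists, those at 0 in both genotypes; other list members were named after their values were seen. Some genes that this rule names are not reported here. Genes with a similar pattern were not sought, since 1 pooled value per genotype forms no pattern. Alternatives were pseudocounts of 0.1 and 0.5, upper quartile and quantile scaling, a mean of at least 5 FPKM, no filter, other fold limits and single entries, with and without the pseudocount. Python 3.11.15, pandas 2.3.3, numpy 2.4.6 and Biopython 1.88 were used.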

Additional observations from a re-analysis of the deposited data

How the results depend on the processing

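No paired analysis was possible because the table holds 1 pooled value per genotype, and leaving out a replicate was not run for the same reason. Of 50 log2 ratios of the 10 factors under 5 alternatives, 40 moved by less than 0.1 and 10 moved further, all under upper quartile scaling, which shifted each by up to 0.114 and the median of the 10 to 0.12. That scaling divides by a quartile over the genes above 0 in each genotype. Taken over genes above 0 in both, an alternative chosen after seeing the data, it gave a median of all genes of 0.0056, and 34.8% of called genes were higher. None of the 10 was called by its sum under any alternative run, and 2 (Tcf3 and Bcl11a) were by single entries, also with no pseudocount, which was tried after seeing the data.

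The percentage of all genes called was 4.20% with a pseudocount of 0.1, 1.20% at a mean of at least 5 FPKM and 1.49% without a filter. Of 132 list medians, 104 moved by less than 0.1. Upper quartile scaling gave medians of 0.17 (relatives), −0.034 (Id genes), 0.21 (partner subunits), 0.13 (other B cell factors), 0.19 (genes activated by Pax5 or Ebf1), 0.0029 (genes repressed by Bcl6 or Bach2), 0.14 (B cell markers), −2.27 (neutrophil), 0.11 (plasmacytoid dendritic) and −0.34 (NK). A mean of at least 5 FPKM, which leaves fewer genes, gave 0.41 (Id genes), 0.10 (repressed by Pax5), −0.066 (plasma cell genes) and 0.14 (other lineage factors). Among markers it gave 0.0029 (T), −0.46 (macrophage), −0.26 (plasma cell markers), 0.59 (germinal center) and −0.55 (NK). The value is that of Id3 alone for the Id genes, of Lck alone for T cells and of Fas alone for germinal center cells. The main medians of these lists were −0.14, −0.14 and −0.36. At a mean of at least 5 FPKM, genes repressed by Pax5 were Xbp1 and Grap2 alone, and other lineage factors Spi1 and Runx3 alone. Macrophage markers were then Lyz2 and Cd68 alone, plasma cell markers Mzb1 and Xbp1, and NK markers Gzma and Nkg7. A pseudocount of 0.1 gave −2.91 (neutrophil), −0.70 (plasma cell markers), −0.60 (germinal center) and −2.79 (erythroid), and 0.5 gave −2.49 (neutrophil), −0.46 (germinal center) and −2.65 (erythroid). Without a filter, plasma cell markers were at −0.28 and erythroid markers at −0.73. Depth per sample is unknown, so the counting error of low values cannot be given.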

Other observations

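Exons of 4 of the 10 genes overlap a gene on the opposite strand in GENCODE M21. The largest overlaps were 636 bases for Pax5 (with 5730488B01Rik and Gm12462 as the overlapping genes), 271 bases for Bach2 (Bach2os), 190 bases for Bcl11a (4930538E20Rik) and 21 bases for Bcl6 (Gm37419). Whether fragments were counted by strand is not given in the sources used here, so fragments of these pairs cannot be told apart.

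The number of entries in the table and of complete coding sequences in GENCODE M21 differed for 6 of the 10 genes. Pax5 has 9 such coding sequences and 1 entry, Tcf4 has 16 and 2, and Ikzf1 has 4 and 2, while Bcl11a has 4 of each.

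Hmox1 and Spic, both called higher in fl/fl, are also abundant in red pulp macrophages. Of the listed macrophage markers, C1qb was at 1.61 and 2.39 FPKM and C1qc at 1.60 and 2.04 FPKM, while Lyz2 was at 72.6 and 44.9 FPKM and Adgre1, under its older symbol Emr1, at 1.34 and 0.652 FPKM. The part of macrophage RNA in the difference of Hmox1 and Spic was not tested.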
